A study of Mus musculus with 11 samples.

Results

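Expression of 10 genes of the unfolded protein response, the programme that cells switch on when proteins misfold in the endoplasmic reticulum (ER), was examined in differentiating fat cells with lowered Tmem120a and Tmem120b, which encode nuclear envelope transmembrane proteins. The members were taken as named genes: Ern1 and Xbp1 for the IRE1 arm (2 genes), Eif2ak3, Atf4, Ddit3, Trib3, Chac1, Atf3 and Asns for the PERK arm (7 genes), and Atf6 for the ATF6 arm (1 gene). Every array probe annotated to them was used, which gave 20 probes of the 45281 on the array and 10 genes of the 19057 that could be named.

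The cells were 3T3-L1, a mouse fibroblast line that becomes adipocytes under an adipogenic cocktail, here insulin (0.5 µM), rosiglitazone (1 µM), dexamethasone (1 µM) and the phosphodiesterase inhibitor IBMX (0.5 mM), then insulin and rosiglitazone alone. Illumina bead arrays were run on differentiated cells carrying short hairpin RNAs (shRNAs) against Tmem120a (2 arrays), against Tmem120b (2 arrays) or against both genes (2 arrays, the double knock-down), on differentiated control cells (3 arrays) and on undifferentiated confluent preadipocytes at day 0 (2 arrays). According to the labels the hairpins came from lentiviruses and the control cells received a non-target hairpin. The preadipocyte labels name no hairpin. If those cells carried none, differentiation and hairpin virus cannot be told apart between control adipocytes and preadipocytes. The sample labels place the adipocytes at day 9, whereas day 6 stands in the series' design text and in the methods, and this difference was not resolved. For the arrays, the methods name stable lines for Tmem120a, for both genes and for the control. Elsewhere they refer to earlier work for the hairpin lines against Tmem120a and Tmem120b. The methods call the replicates biological, but do not say whether a line is a single clone or how the cultures of a group were separated. The p-values measure the spread between these replicates.

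In the unfolded protein response the ER membrane carries 3 sensors. IRE1, the product of Ern1, splices Xbp1 mRNA into the form that encodes an active transcription factor, and also cuts other ER-bound mRNAs. PERK, the product of Eif2ak3, phosphorylates eIF2alpha, which slows translation in general but lets Atf4 mRNA be translated, and ATF4 then switches on Ddit3 (the transcription factor CHOP), Trib3, Chac1, Atf3 and Asns. ATF6 is cut in the Golgi into a transcription factor for ER chaperones such as Hspa5 (BiP). Secretory and lipid-storing cells such as adipocytes depend on these arms, and XBP1 is known to promote fat cell formation and CHOP to inhibit it. The arrays read mRNA level only, so neither Xbp1 splicing, nor eIF2alpha phosphorylation, nor ATF4 protein was measured, and in whole cultures fewer cells of a type and less RNA per cell cannot be told apart.

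All values are log2 probe signals after the authors' quantile normalisation, on which a step of 1 is a doubling. A gene was represented by its brightest probe and was called when limma gave an adjusted p of 0.05 or less (Benjamini-Hochberg over all probes) and a log2 change of 0.5 or more (1.4-fold) in either direction. The files hold no detection p-values, so a background threshold of 6.87 was set from the values; a group mean below it was treated as not measurable. By this threshold 15 of the 20 member probes were measurable in at least 1 group, 13 of 14 in the PERK arm, 2 of 4 in the IRE1 arm and 0 of 2 in the ATF6 arm.

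The knock-downs and the cell state were checked first. Tmem120a read 11.14 and 11.48 in Tmem120a knock-down cells, 12.58 and 12.66 in Tmem120b knock-down cells and 11.51 and 11.52 in double knock-down cells, against 12.52, 12.69 and 12.69 in control adipocytes. Tmem120b read 10.76 and 10.48, 8.38 and 8.39, and 8.87 and 8.79 in Tmem120a, Tmem120b and double knock-down cells, against 10.53, 10.35 and 10.46 in control adipocytes. Each hairpin therefore lowered its own target. Mean signal over 11 adipocyte markers was 10.95 to 11.04 in Tmem120a knock-down, 10.40 to 10.55 in Tmem120b knock-down and 10.53 to 10.59 in double knock-down arrays, 10.76 to 10.83 in control adipocytes and 7.09 to 7.10 in preadipocytes, where 2 of the 11 were above background. Mean signal over 9 preadipocyte and fibroblast markers was 10.09 to 10.11, 10.84 to 10.89 and 10.65 to 10.84 in the 3 knock-downs in the same order, 10.18 to 10.20 in control adipocytes and 11.68 to 11.81 in preadipocytes. These 9 did not move as a block. Pdgfra and Col1a1 were higher in control adipocytes than in preadipocytes (10.88 against 10.51 and 12.48 against 12.05), neither called. In Tmem120b and double knock-down cells 5 and 4 of the 9 were called higher and 0 lower, where 3.83% and 3.29% of all genes were called higher. Lists of macrophage and endothelial genes averaged 6.72 to 7.04 in every group, close to background. Before normalisation the 6 knock-down arrays had median signals of 6.58 to 6.70 and the other 5 arrays 6.75 to 7.10, so a technical difference common to the knock-down arrays cannot be told apart from an effect common to the knock-downs.

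Control adipocytes differed from preadipocytes in 6 of the 10 members, with Xbp1, Ddit3, Trib3, Atf3 and Ern1 higher and Asns lower. Over all 19057 genes, 11.9% were called higher and 11.1% lower in this comparison, and the median change was 0.51 over the members and 0.00 over all genes. Only 10738 of the 19057 genes were measurable in at least 1 group, and of these 21.1% were higher and 19.6% lower. Against control adipocytes, 4 members were lower in Tmem120a knock-down cells (Ern1, Ddit3, Trib3 and Chac1), and 0 were higher; over all genes 2.32% were called lower and 0.829% higher, and over measurable genes 4.12% and 1.47%. Tmem120b knock-down lowered 5 members (Ern1, Ddit3, Trib3, Chac1 and Atf3) and raised 0, where 4.04% of all genes were called lower and 3.83% higher, or 7.17% and 6.79% of measurable genes. Double knock-down lowered 5 members (Ern1, Atf4, Ddit3, Trib3 and Chac1) and raised 0, where 3.96% of all genes were called lower and 3.29% higher, or 7.03% and 5.84% of measurable genes. The member medians were -0.31, -0.50 and -0.49 in Tmem120a, Tmem120b and double knock-down cells, beside 0.01, 0.02 and 0.02 over all genes. These 3 comparisons use the same 3 control arrays and are not independent of each other.

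**Figure D1:**
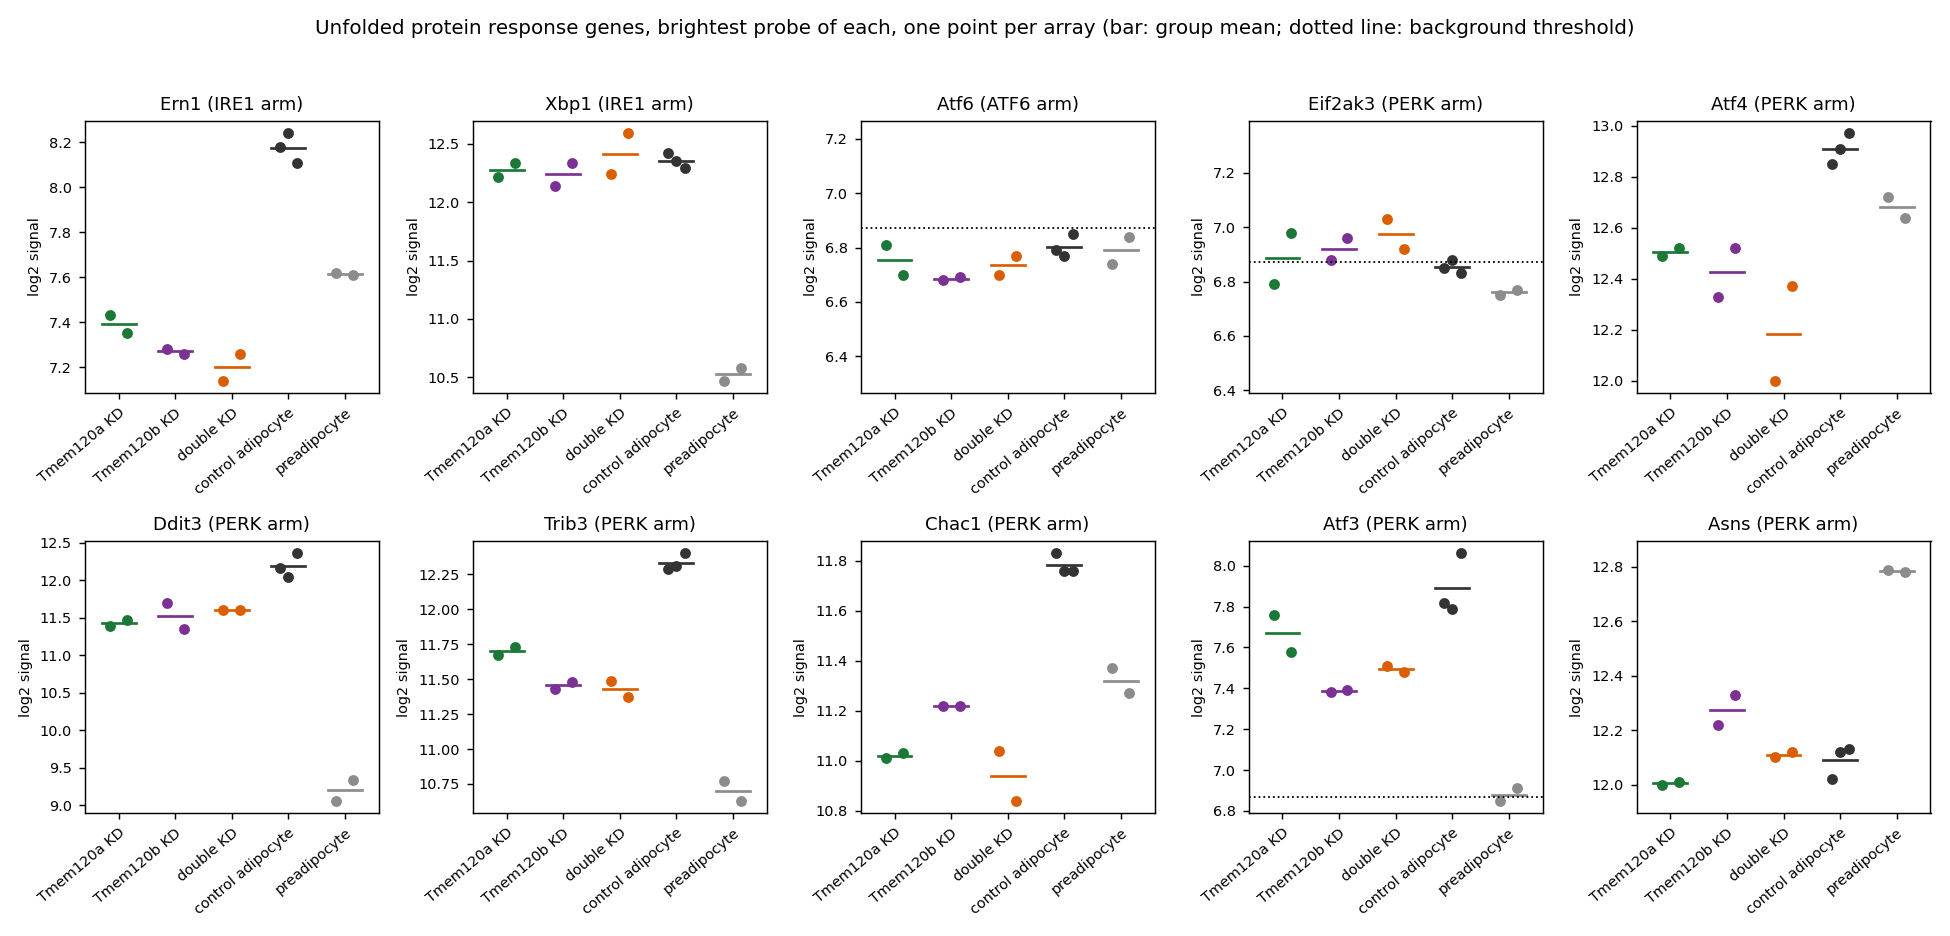
Log2 signal (vertical axis) of the brightest probe of each of the 10 members, with one point per array, grouped along the horizontal axis as Tmem120a knock-down, Tmem120b knock-down, double knock-down, control adipocyte and preadipocyte; bars are group means and the dotted line is the background threshold of 6.87. In Ern1, Atf4, Ddit3, Trib3, Chac1 and, by a narrow gap, Atf3 all 6 knock-down points lie below all 3 control points, and in Xbp1 they overlap them. Atf6 lies below the threshold and Eif2ak3 around it. The share of all genes with such a separation was not computed.

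Within the IRE1 arm, the sensor and its substrate behaved differently. Ern1 read 7.43 and 7.35 in Tmem120a knock-down cells, 7.28 and 7.26 in Tmem120b knock-down cells and 7.14 and 7.26 in double knock-down cells, against 8.18, 8.24 and 8.11 in control adipocytes and 7.62 and 7.61 in preadipocytes. All 6 knock-down arrays lay below all 3 control arrays and also below both preadipocyte arrays, and replicates differed by 0.13 or less. Relative to control adipocytes, Ern1 was at 58.1% in Tmem120a knock-down cells (log2 change -0.78, SE 0.0607, adjusted p = 7.19e-06). It was at 53.4% in Tmem120b knock-down cells (-0.91, adjusted p = 7.17e-07) and at 50.9% in double knock-down cells (-0.98, adjusted p = 4.13e-07). Control adipocytes exceeded preadipocytes by 0.56 (1.47-fold, adjusted p = 7.38e-06). The result rests on 1 Ern1 probe, since the other 2 read 6.59 to 6.83 on every array, below background.

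Xbp1, by contrast, was among the bright members and was not called in any knock-down. It read 12.22 and 12.34 in Tmem120a knock-down cells, 12.14 and 12.34 in Tmem120b knock-down cells and 12.24 and 12.59 in double knock-down cells, against 12.42, 12.35 and 12.29 in control adipocytes and 10.47 and 10.58 in preadipocytes. The knock-down and control arrays overlapped, while all 9 adipocyte arrays lay above both preadipocyte arrays. Control adipocytes carried 3.55 times the preadipocyte signal (log2 change 1.83, SE 0.0968, adjusted p = 7.58e-09). The changes in Tmem120a, Tmem120b and double knock-down cells were -0.08, -0.11 and 0.06, with 95% intervals of -0.29 to 0.14, -0.32 to 0.10 and -0.15 to 0.27. A fall of the size seen for Ern1 lies outside each of these intervals.

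The ATF6 and PERK sensors read at or below background. Atf6 read 6.68 to 6.85 on its brighter probe and 6.56 to 6.81 on the other over all 11 arrays, below the threshold throughout. Eif2ak3 read 6.79 and 6.98 in Tmem120a knock-down cells, 6.88 and 6.96 in Tmem120b knock-down cells and 7.03 and 6.92 in double knock-down cells, against 6.85, 6.88 and 6.83 in control adipocytes and 6.75 and 6.77 in preadipocytes. Its second probe read 6.60 to 6.77 on every array. No probe of either gene was called in any comparison. The 95% intervals of the Eif2ak3 change were -0.11 to 0.18, -0.08 to 0.20 and -0.02 to 0.26 in Tmem120a, Tmem120b and double knock-down cells, so that a rise of 0.5 in its signal lies outside each, whereas a fall of either mRNA was not detectable at this level.

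The ATF4 branch downstream of PERK comprised the other 6 genes of its arm, all of them measurable. ATF4 acts through C/EBP-ATF response elements, whose core was searched as TGATGNAA on both strands in the window from 250 bases before to 50 bases after the annotated start of each gene (RefSeq, build GRCm38.p6). Windows were found for 9 of the 10 members; Atf6 had none. The core occurred in 4 of the 9, those of Chac1, Trib3, Asns and Atf3, and in 3.97% of 32851 windows searched for comparison. These, called all windows below, leave out a chromosome and can hold several starts of a gene. The 4 windows are printed in full because they hold this letter pattern near the annotated start of genes whose probes moved differently in the knock-downs. Each is written 5′ to 3′ on the strand of the gene, with the match in capitals; a match read as TTGCATCA or TTACATCA is the core on the opposite strand.
Chac1, chr2:119350992-119351291, plus strand: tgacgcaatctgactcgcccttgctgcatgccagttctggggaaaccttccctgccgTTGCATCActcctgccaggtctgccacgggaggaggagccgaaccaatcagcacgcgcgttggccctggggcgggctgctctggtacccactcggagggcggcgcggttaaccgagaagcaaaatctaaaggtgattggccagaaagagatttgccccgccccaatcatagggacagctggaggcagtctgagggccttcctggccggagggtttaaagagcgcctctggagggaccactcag
Trib3, chr2:152344011-152344310, minus strand: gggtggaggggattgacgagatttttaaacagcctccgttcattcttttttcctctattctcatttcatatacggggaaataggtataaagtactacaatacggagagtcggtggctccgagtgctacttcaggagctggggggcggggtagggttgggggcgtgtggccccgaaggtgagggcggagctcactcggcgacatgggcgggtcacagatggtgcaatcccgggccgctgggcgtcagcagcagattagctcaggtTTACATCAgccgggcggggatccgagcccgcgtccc
Atf3, chr1:191183284-191183583, minus strand: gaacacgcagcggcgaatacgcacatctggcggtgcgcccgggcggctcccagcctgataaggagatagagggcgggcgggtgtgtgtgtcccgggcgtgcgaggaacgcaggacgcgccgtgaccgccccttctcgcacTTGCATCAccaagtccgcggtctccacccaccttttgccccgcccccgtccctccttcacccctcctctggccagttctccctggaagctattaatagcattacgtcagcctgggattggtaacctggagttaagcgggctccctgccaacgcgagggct
Asns, chr6:7693160-7693459, minus strand: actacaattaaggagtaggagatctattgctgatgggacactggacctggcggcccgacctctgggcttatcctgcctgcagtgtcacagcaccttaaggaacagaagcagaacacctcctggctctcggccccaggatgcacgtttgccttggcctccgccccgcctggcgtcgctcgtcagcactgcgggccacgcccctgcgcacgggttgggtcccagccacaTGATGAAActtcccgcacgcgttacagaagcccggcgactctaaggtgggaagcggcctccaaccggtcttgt
The match began 193 bases before the start in Chac1, 110 before it in Atf3 and 23 before it in Asns, and 14 bases after it in Trib3. The core was not matched in the windows of Ern1, Xbp1, Eif2ak3, Atf4 and Ddit3. The full ER stress element bound by ATF6 and NF-Y (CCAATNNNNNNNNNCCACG, 0.119% of all windows) and the unfolded protein response element core TGACGTGG (0.676% of all windows) matched 0 of the 9 windows. A match is a run of letters and not a measured binding site, and the absence of one says nothing of sites outside these 300 bases.

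Atf4 itself, the transcription factor of the branch, was high in every group and lower in the knock-downs. Its bright probe read 12.49 and 12.52 in Tmem120a knock-down cells, 12.33 and 12.52 in Tmem120b knock-down cells and 12.00 and 12.37 in double knock-down cells, against 12.85, 12.91 and 12.97 in control adipocytes and 12.72 and 12.64 in preadipocytes. All 6 knock-down arrays were below the 5 other arrays. The fall reached the call in double knock-down cells (-0.72, SE 0.0946, adjusted p = 0.000174). In Tmem120a knock-down cells (-0.40, adjusted p = 0.0196) and Tmem120b knock-down cells (-0.49, adjusted p = 0.00317) the adjusted p passed and the size did not reach 0.5. The Tmem120b fall was called at -0.52 without the first control array and at -0.58 without the second Tmem120b knock-down array.

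The second, dimmer Atf4 probe gave larger changes. It read 8.46 and 8.31 in Tmem120a knock-down, 8.21 and 7.96 in Tmem120b knock-down and 8.02 and 8.47 in double knock-down cells, against 9.61, 9.77 and 9.67 in control adipocytes and 9.27 and 9.51 in preadipocytes. It was called lower in Tmem120a (-1.30, adjusted p = 3.05e-05), Tmem120b (-1.60, adjusted p = 1.92e-06) and double knock-down cells (-1.44, adjusted p = 4.90e-06). Both probes moved in the same direction, but the size of the Atf4 change, 75.7% or 40.7% of control in Tmem120a knock-down cells, depended on the probe. Control adipocytes and preadipocytes differed by 0.23 on the bright probe and 0.29 on the dim one, neither called.

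Ddit3, which encodes the pro-apoptotic factor CHOP, showed the largest difference of the members between control adipocytes and preadipocytes. It read 11.39 and 11.47 in Tmem120a knock-down cells, 11.70 and 11.35 in Tmem120b knock-down cells and 11.61 and 11.61 in double knock-down cells, against 12.16, 12.04 and 12.36 in control adipocytes and 9.06 and 9.34 in preadipocytes. Knock-down arrays lay between the control and the preadipocyte arrays and much nearer to control. The signal in control adipocytes was 7.94 times that in preadipocytes (log2 change 2.99, SE 0.114, adjusted p = 3.09e-10). Relative to control, Ddit3 was at 59.3% in Tmem120a knock-down (-0.75, adjusted p = 0.00114), 63.2% in Tmem120b knock-down (-0.66, adjusted p = 0.00127) and 67.0% in double knock-down cells (-0.58, adjusted p = 0.00357). The second Ddit3 probe gave changes of -0.80, -0.92 and -0.88 in Tmem120a, Tmem120b and double knock-down cells, all called. The call in double knock-down cells was lost without the third control array and the call in Tmem120b knock-down cells was lost without the second Tmem120b knock-down array, at -0.49 in both cases, just under the size required.

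Trib3, a pseudokinase that CHOP and ATF4 induce and that dampens AKT and ATF4 signalling, gave the same direction on 3 probes. The brightest read 11.67 and 11.73 in Tmem120a knock-down cells, 11.43 and 11.48 in Tmem120b knock-down cells and 11.49 and 11.37 in double knock-down cells, against 12.29, 12.31 and 12.40 in control adipocytes and 10.77 and 10.63 in preadipocytes. As in Ddit3, the knock-down arrays fell between control adipocytes and preadipocytes without touching either. The changes were -0.63 (adjusted p = 5.91e-05) in Tmem120a knock-down, -0.88 (adjusted p = 1.49e-06) in Tmem120b knock-down and -0.91 (adjusted p = 1.24e-06) in double knock-down cells. Its other 2 probes were called lower in Tmem120b knock-down cells (-0.90 and -0.83) and in double knock-down cells (-1.05 and -0.86), while in Tmem120a knock-down cells they changed by -0.43 and -0.46 and were not called. In control adipocytes Trib3 exceeded preadipocytes by 1.63, 1.80 and 1.56 on the 3 probes, all called.

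Chac1, which degrades glutathione and is a direct target of ATF4, fell in each knock-down. It read 11.01 and 11.03 in Tmem120a knock-down cells, 11.22 and 11.22 in Tmem120b knock-down cells and 11.04 and 10.84 in double knock-down cells, against 11.83, 11.76 and 11.76 in control adipocytes and 11.37 and 11.27 in preadipocytes. Every knock-down array lay below both preadipocyte arrays as well as below the control arrays, the order also seen for Ern1 and the bright Atf4 probe and not for Ddit3 or Trib3. Chac1 was at 58.9% of control in Tmem120a knock-down (-0.76, SE 0.0655, adjusted p = 1.55e-05), 67.9% in Tmem120b knock-down (-0.56, adjusted p = 6.69e-05) and 55.9% in double knock-down cells (-0.84, adjusted p = 2.55e-06). Control adipocytes were 0.46 above preadipocytes (adjusted p = 9.37e-05), short of the size required, and 0.51 above them, called, without the first preadipocyte array.

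Atf3, a stress-induced repressor and activator of the same family, was dim. It read 7.76 and 7.58 in Tmem120a knock-down cells, 7.38 and 7.39 in Tmem120b knock-down cells and 7.51 and 7.48 in double knock-down cells, against 7.82, 7.79 and 8.06 in control adipocytes and 6.85 and 6.91 in preadipocytes. Preadipocytes were at background, and all knock-down arrays were below control with a narrow gap for Tmem120a. Atf3 was called lower in Tmem120b knock-down cells (-0.51, adjusted p = 0.000713), a call that was lost at -0.42 without the third control array. It changed by -0.23 in Tmem120a knock-down cells (adjusted p = 0.126) and by -0.39 in double knock-down cells (adjusted p = 0.00471), neither called. The signal in control adipocytes was 2.01 times that in preadipocytes (adjusted p = 3.83e-07).

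Asns, asparagine synthetase, a classical target of the amino acid branch of ATF4, ran against the rest. Its brightest probe read 12.00 and 12.01 in Tmem120a knock-down cells, 12.22 and 12.33 in Tmem120b knock-down cells and 12.10 and 12.12 in double knock-down cells, against 12.02, 12.12 and 12.13 in control adipocytes and 12.79 and 12.78 in preadipocytes. It was the one member lower in control adipocytes than in preadipocytes (61.9%, log2 change -0.69, adjusted p = 5.62e-07; -0.41, not called, when arrays were only given a shared median), and its other 2 probes fell with it (-0.55 and -0.63, both called). In Tmem120a, Tmem120b and double knock-down cells the 2 brighter probes changed by -0.08 and 0.08, 0.18 and 0.15, and 0.02 and 0.16, and none was called.

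The third Asns probe disagreed with these. It read 7.89 and 7.88 in Tmem120a knock-down, 7.50 and 7.54 in Tmem120b knock-down and 7.55 and 7.94 in double knock-down cells, against 8.45, 8.78 and 8.32 in control adipocytes and 9.05 and 9.24 in preadipocytes. It was called lower in Tmem120a (-0.63, adjusted p = 0.00873), Tmem120b (-0.99, adjusted p = 0.000147) and double knock-down cells (-0.77, adjusted p = 0.0011). No probe sequences or transcript positions were used here, so which transcripts each Asns or Atf4 probe reads was not determined, and the Asns response to knock-down is uncertain.

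**Figure D2:**
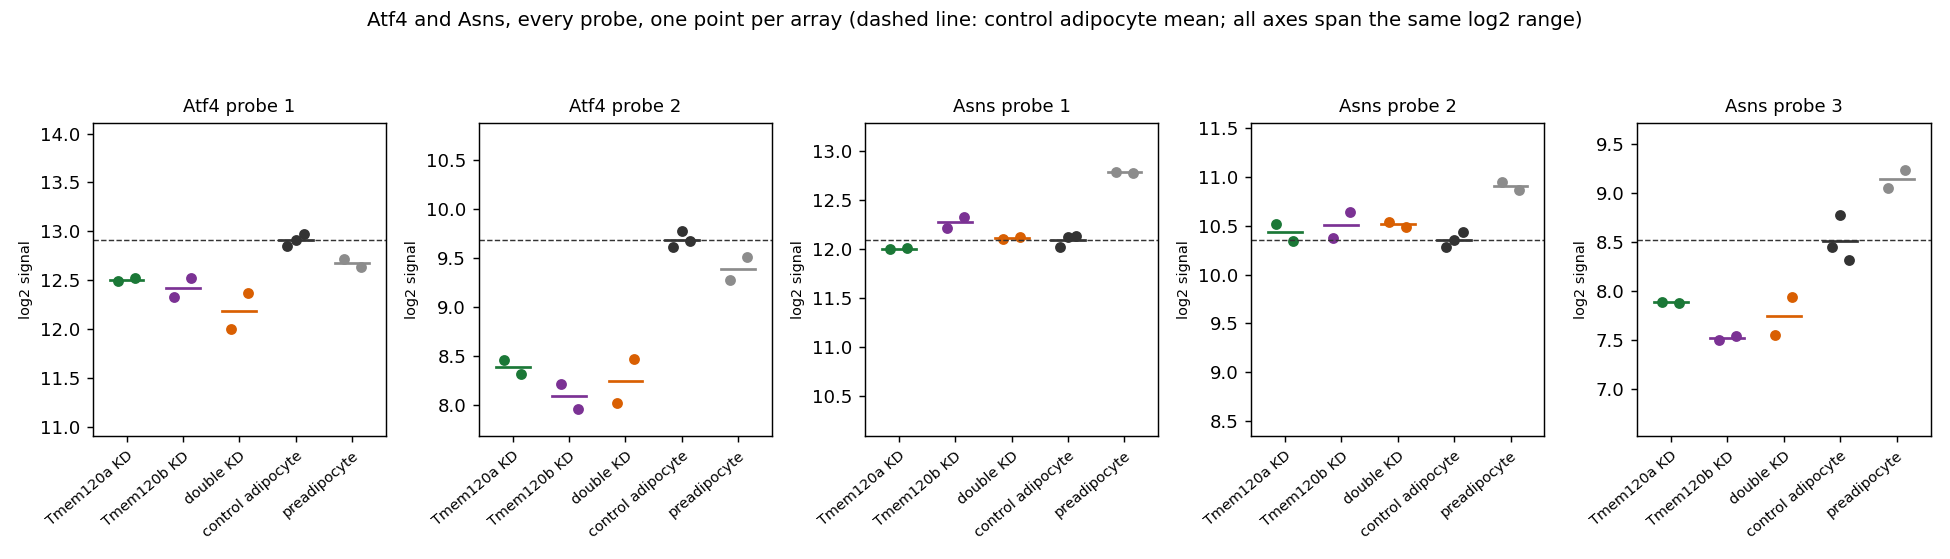
Log2 signal (vertical axes, each spanning the same range around the control mean) of the 2 Atf4 probes and the 3 Asns probes, one point per array, in Tmem120a knock-down, Tmem120b knock-down, double knock-down, control adipocyte and preadipocyte groups along the horizontal axis; short bars are group means and the dashed line is the control mean. Both Atf4 probes lie below control in the knock-downs, by -0.40 to -0.72 on the first and -1.30 to -1.60 on the second. Asns probe 3 was called lower in each knock-down, whereas probes 1 and 2 were not called in any.

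**Figure D3:**
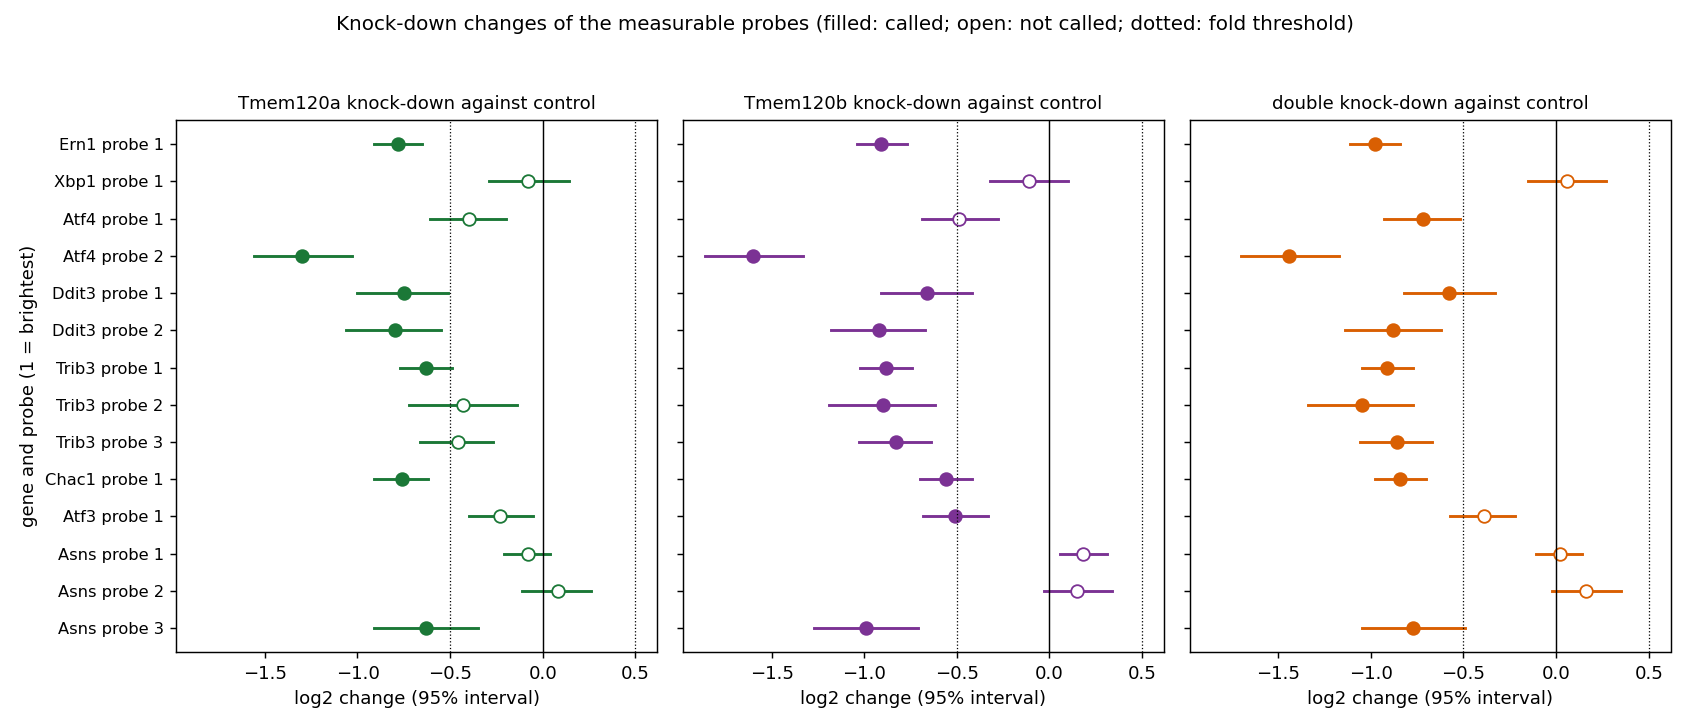
Log2 change with its 95% interval (horizontal axis) in Tmem120a, Tmem120b and double knock-down cells against control adipocytes for each measurable member probe but that of Eif2ak3, numbered within a gene by brightness; filled points were called, open points were not, and dotted lines mark a change of 0.5. Every interval of Ern1, Ddit3, Trib3 and Chac1 lies below 0, those of Xbp1 include 0, and the Asns probes split.

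Counted by probe rather than by gene, 7 of the 20 were called lower in Tmem120a knock-down cells, 10 in Tmem120b knock-down cells and 10 in double knock-down cells, and 0 were called higher in any. In the PERK arm these were 6, 9 and 9 of 14 probes, in the IRE1 arm the single measurable Ern1 probe each time, and in the ATF6 arm none of 2. Several probes read the same gene, and the share called over all array probes was not computed. These counts are therefore no separate result from those by gene.

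On the brightest probe, no member was called between double and single knock-down cells. Double against Tmem120a knock-down cells called 0 of 10 members (2.13% of all genes were lower and 2.75% higher). Trib3, at -0.27 with a 95% interval of -0.43 to -0.12, had the one adjusted p under 0.05 (adjusted p = 0.0321). The second Trib3 probe was called, at -0.62 (adjusted p = 0.0184). Without the second double knock-down array, Atf4 was called lower in double than in Tmem120a knock-down cells (-0.50), and with it stood at -0.32 (adjusted p = 0.0900). Double against Tmem120b knock-down cells also called 0 (0.152% of all genes lower and 0.0472% higher). Tmem120a against Tmem120b knock-down cells called 0 (3.66% lower and 2.75% higher over all genes). Under the size required, Trib3 was 0.24 higher in Tmem120a than in Tmem120b knock-down cells (adjusted p = 0.0484) and Asns 0.26 lower (log2 difference -0.26, adjusted p = 0.0165). The other 2 Asns probes did not give that difference, at -0.07 for the second and 0.36 for the third (adjusted p = 0.751 and 0.151).

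The change in double knock-down cells was also set against the sum of both single changes, where a positive difference means that the double knock-down lost less than the sum. Each single change uses the same control arrays. An equal fall in all knock-down arrays, technical or not, therefore gives a positive difference by itself, and its part was not tested. Over all genes 1.67% were called above and 0.808% below 0 for this difference. Among the members 3 were called, all above 0: Ern1 at 0.71 (SE 0.0900, adjusted p = 0.00126), Ddit3 at 0.84 (SE 0.168, adjusted p = 0.0196) and Trib3 at 0.60 (SE 0.0961, adjusted p = 0.00569). Chac1 stood at 0.48 (adjusted p = 0.0201), under the size required, and the bright Atf4 probe at 0.17 (adjusted p = 0.691) although the dim one stood at 1.46 (adjusted p = 0.00111). For Ern1 the sum of the single changes leads to a level of 6.49, below the background threshold, where the array could not have shown it. The part of background in its difference was not tested. Counted from the threshold, the double knock-down mean stood 0.33 above, under the size required. The dim Atf4 probe has the same limit (sum at 6.79, 1.38 above the threshold), and the third Asns probe, called at 0.85, has its sum at 6.90, next to the threshold. The sums for Ddit3 (10.77) and Trib3 (10.82) lie well above it. The Ddit3 call was lost without the first Tmem120a knock-down array (0.80, adjusted p = 0.0644) and without the second Tmem120b knock-down array (0.66, adjusted p = 0.0734), and Chac1 was called at 0.58 without the second double knock-down array. For the other 2 Trib3 probes the differences were 0.28 and 0.43, not called.

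Other genes of the pathway were described from lists chosen with earlier results known, by counts and medians alone. Most listed genes were measurable, so their counts stand against the shares of measurable genes: 4.12% lower and 1.47% higher in Tmem120a knock-down cells, 7.17% and 6.79% in Tmem120b knock-down cells, 7.03% and 5.84% in double knock-down cells, and 19.6% and 21.1% in control adipocytes against preadipocytes. Of 20 measured IRE1 and XBP1 targets, which serve folding, transport and degradation in the ER, 2 were called lower and 0 higher in Tmem120a knock-down cells, 4 lower and 1 higher in Tmem120b knock-down cells and 4 lower and 0 higher in double knock-down cells. The list medians were -0.03, 0.03 and 0.04, near those of all genes. Dnajb9, the ERdj4 co-chaperone that restrains IRE1, read 11.51 and 11.02 in Tmem120a knock-down, 10.37 and 10.53 in Tmem120b knock-down and 10.15 and 10.52 in double knock-down cells, against 11.52, 11.58 and 11.50 in control adipocytes and 8.92 and 9.13 in preadipocytes. It was lower in Tmem120b (-1.08, adjusted p = 0.000101) and double knock-down cells (-1.20, adjusted p = 4.69e-05) and not called in Tmem120a knock-down cells (-0.27, adjusted p = 0.297). Here double and Tmem120a knock-down cells did differ (-0.93, adjusted p = 0.0016). Sec24d, a coat protein of ER export vesicles, was lower in all 3 (-0.68, -0.75 and -0.76), and Derl2, of ER-associated degradation, in Tmem120b and double knock-down cells (-0.80 and -0.57). Sec24d in Tmem120a knock-down cells lost its call at -0.50 without the second array of that group, and Derl2 in double knock-down cells at -0.46 without the first control array. In control adipocytes against preadipocytes 6 of the 20 were higher, led by Dnajb9 (2.51) and Derl2 (1.40), and 3 were lower, among them Spcs3 (-1.26), a signal peptidase subunit; these counts are near the shares of measurable genes.

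Of 6 mRNAs known as substrates of IRE1-dependent decay, 0 were lower and 0, 2 and 2 were higher in Tmem120a, Tmem120b and double knock-down cells, and 5 were higher in control adipocytes than in preadipocytes. The 2 that rose were Scara3 (0.93 in Tmem120b and 0.94 in double knock-down cells) and Pdgfrb (0.56 and 0.64). With arrays shifted to a shared median without quantile normalisation, the Pdgfrb rises and the Scara3 rise in Tmem120b knock-down cells were not called. In the same 2 groups the 9 preadipocyte and fibroblast markers averaged above control, and their part in this was not tested.

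For the ATF6 arm, whose sensor was not measurable, 13 target genes were measured. Of these, 3 were lower in Tmem120a, 1 in Tmem120b and 3 in double knock-down cells, and none was higher; medians were -0.11, -0.04 and -0.10. Hspa5 (BiP), the main ER chaperone, read 6.92 and 6.97 in Tmem120a knock-down cells, 6.97 and 7.03 in Tmem120b knock-down cells and 6.77 and 7.06 in double knock-down cells, against 8.54, 8.72 and 8.70 in control adipocytes and 8.40 and 8.47 in preadipocytes. All 6 knock-down arrays were below the other 5, and the highest of them was 0.19 above the background threshold. The changes were -1.71 (adjusted p = 3.65e-07), -1.65 (adjusted p = 8.95e-08) and -1.74 (adjusted p = 6.48e-08) in Tmem120a, Tmem120b and double knock-down cells, on the 1 probe named for Hspa5. The other targets of the list did not follow at that size. Herpud1, a membrane protein of ER-associated degradation, changed by -0.57, -0.40 (not called) and -0.64. Sdf2l1 was called at -0.70 in Tmem120a knock-down cells. Hsp90b1 (GRP94) was called at -0.62 in double knock-down cells, but stood at -0.36, under the size required, without the second array of that group. Among 6 genes that process ATF6 or are its relatives, none was called in a knock-down, and Creb3l1 was higher in control adipocytes than in preadipocytes (0.57).

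The genes around eIF2alpha were examined because kinases other than PERK can also feed ATF4. Of 9 measured, 2 were lower and 0 higher in Tmem120a knock-down cells, and 1 was lower and 1 higher in both Tmem120b and double knock-down cells. Ppp1r15a (GADD34), the phosphatase subunit that reverses eIF2alpha phosphorylation and is itself an ATF4 and CHOP target, read 8.13 and 8.29, 8.22 and 8.26, and 8.26 and 8.15 in Tmem120a, Tmem120b and double knock-down cells, against 8.93, 8.74 and 8.91 in control adipocytes and 7.98 and 7.73 in preadipocytes. It fell by similar amounts in each (-0.65, -0.62 and -0.65) and was 1.00 higher in control adipocytes than in preadipocytes. Nfe2l2, encoding the PERK substrate NRF2, was lower in Tmem120a knock-down cells (-0.51), a call lost at -0.43 without the second array of that group and at -0.44 without the first control array. Eif2ak2 (PKR), the double-stranded RNA sensor and interferon-induced eIF2alpha kinase, went the other way, at 10.09 and 10.15, 11.39 and 11.32, and 11.17 and 10.91 in Tmem120a, Tmem120b and double knock-down cells, against 10.32 in each of the 3 control arrays. It rose by 1.03 in Tmem120b (adjusted p = 1.54e-06) and 0.72 in double knock-down cells (adjusted p = 3.26e-05) and changed by -0.20 in Tmem120a knock-down cells (adjusted p = 0.157); with a shared median alone the rise in double knock-down cells was 0.40 and not called. Mean signal over 15 interferon-response genes, Eif2ak2 itself among them, moved with it. This mean was 7.92 to 8.04, 9.37 to 9.39 and 8.93 to 9.19 in the 3 knock-downs, against 8.04 to 8.17 in control adipocytes. Of these 15 genes, 1 was called higher (Rsad2, 0.55) and 2 lower in Tmem120a knock-down cells, 11 higher and 0 lower in Tmem120b knock-down cells and 10 higher and 0 lower in double knock-down cells, and their part in the member changes was not tested.

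Of 18 measured ATF4 targets of amino acid supply, the group Asns belongs to by function, 3 were lower and 0 higher in Tmem120a knock-down, 1 lower and 2 higher in Tmem120b knock-down, and 2 lower and 1 higher in double knock-down cells, with medians of -0.06, 0.05 and -0.01. Slc3a2, the heavy chain of amino acid transporters, was lower in Tmem120a (-0.95) and Tmem120b knock-down cells (-0.96), and at least 1.98-fold lower in double knock-down cells, where it was below background. Gpt2, an alanine aminotransferase, was higher in Tmem120b (0.70) and double knock-down cells (0.68), calls that a shared median alone did not give (0.23 and 0.37). In control adipocytes 6 of the 18 were lower than in preadipocytes, led by Shmt2 of serine metabolism (-1.60) and the cystine transporter Slc7a11 (-0.95), and 2 were higher. Of 12 aminoacyl-tRNA synthetases, also ATF4 targets, 5 were lower and 1 higher in control adipocytes against preadipocytes (median -0.43), with Cars at -1.16. In each knock-down 1 of the 12 was called, Tars, at -0.74, -0.65 and -0.98 in Tmem120a, Tmem120b and double knock-down cells.

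Among 19 other ATF4 and CHOP targets, 2, 4 and 3 were lower and 0, 1 and 1 higher in Tmem120a, Tmem120b and double knock-down cells, with medians of -0.14, -0.08 and -0.03. Vegfa, the angiogenic growth factor, read 10.89 and 10.87 in Tmem120a knock-down, 10.14 and 10.37 in Tmem120b knock-down and 9.99 and 10.31 in double knock-down cells, against 11.65, 11.72 and 11.56 in control adipocytes and 9.53 and 9.64 in preadipocytes. It changed by -0.76, -1.39 and -1.49, all called. The stress-inducible regulator Nupr1 was lower in Tmem120b (-1.0) and double knock-down cells (-0.78), the mTORC1 inhibitor Ddit4 in Tmem120a knock-down cells (-0.87), and the pro-apoptotic Bcl2l11 was higher in Tmem120b (0.74) and double knock-down cells (0.61, or 0.44 and not called without the first array of that group; neither rise was called with a shared median alone). In control adipocytes 11 of the 19 were higher than in preadipocytes and 2 lower, led by the lipoprotein receptor Vldlr (2.33), Nupr1 (2.09) and Vegfa (2.06).

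**Figure D4:**
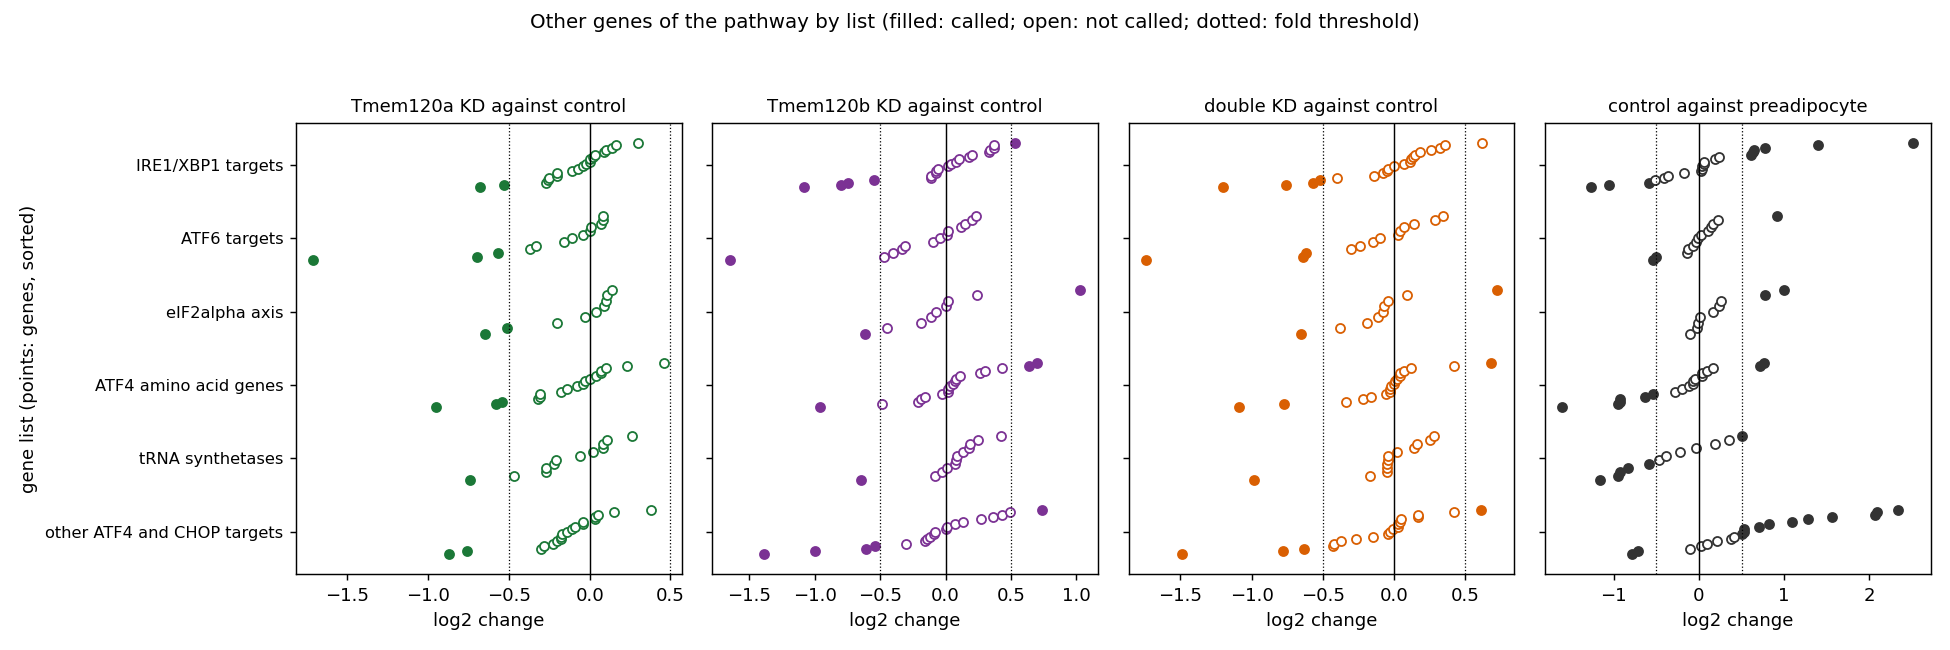
Log2 change (horizontal axis) of each measured gene in 6 lists of the pathway (rows, genes sorted within a list) in Tmem120a, Tmem120b and double knock-down cells against control adipocytes and in control adipocytes against preadipocytes; filled points were called, open points were not, and dotted lines mark a change of 0.5. Most points lie within 0.5 of 0 in the knock-downs, and the point farthest to the left in the ATF6 row of each is Hspa5, at -1.71, -1.65 and -1.74.

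The genes whose pattern over the 9 adipocyte arrays was most like that of a member were named as a description, among 8186 genes above background in every group. For Ern1 these were Smim27 (Pearson's r 0.998), Ppp1cc (0.994) and Idh2 (0.993). For Trib3 they were Usp14 (0.994), Dld (0.992) and Mxd1 (0.989), and for Chac1 they were Cebpd (0.987), Mif (0.983) and Limk1 (0.980). For Atf4 they were Ints14 (0.989), Ppp3r1 (0.967) and Dbt (0.967), for Ddit3 Zcchc3 (0.963), Ciz1 (0.954) and Prps2 (0.949), and for Atf3 Pfkp (0.966), Nxf1 (0.965) and Fbxl4 (0.963). These arrays share the split of 3 control against 6 knock-down arrays, which by itself sets much of each value.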

How the data were processed

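RNA of 11 samples was labelled as cRNA and run on Illumina MouseWG-6 v2 arrays, 1 array a sample. The authors deposited log2 probe signals for 45281 probes, without normalisation between arrays and after quantile normalisation in limma; the limma version, the bead summarisation and the background treatment are not given in the sources used. The quantile-normalised log2 values were used as deposited, and the others served as alternatives; 0 columns were left unmatched. Platform annotation gave 1 symbol for 34885 probes, several for 18 and none for 10378. With limma 3.58.1 in R 4.3.3, 5 group means were fitted over all 11 arrays (6 residual degrees of freedom, 6.15 from moderation), each comparison was tested two-sided, and p-values were adjusted over all probes; adjusted p-values in the text are limma's. The methods name the moderated F statistic, which was run as an alternative. The background threshold, 6.87, is the mode of all values (6.66) plus 3 times the spread below it (0.0721); about 39% of probes lay above it. The number of arrays limits the precision, and the median residual SD was 0.0728 log2. "At least" folds set the dim group at the higher of the threshold and its own signal.

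The members, lists and tests were chosen with earlier results of these data known. Besides all member probes and both targets, at most 3 called genes with the largest change per list and comparison are named, Hspa5 and Eif2ak2 always, and the 3 genes most like each member called in a knock-down. Some listed genes had no probe named for them, and older tRNA synthetase symbols were matched after the annotation had been seen. Promoter windows came from RefSeq through a supplied table. The scripts were tested on simulated data. Alternatives covered scaling, filters on dim probes, moderation, array weights, the arrays in the fit, a replicate block, each array left out, the probe rule and the fold threshold. Chip and array position were not given, so no batch could be fitted.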

Additional observations from a re-analysis of the deposited data

Results flagged for a closer look

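For 3 members the change in double knock-down cells differed from the sum of the changes in both single knock-downs by limma's test of that difference. Both single changes use the same control arrays, so an equal fall in all knock-down arrays gives a positive difference by itself. The part of such a fall, technical or not, was not tested. The double change exceeded the sum (it was less negative) by 0.71 for Ern1 (SE 0.0900, adjusted p = 0.00126), by 0.84 for Ddit3 (SE 0.168, adjusted p = 0.0196) and by 0.60 for Trib3 (SE 0.0961, adjusted p = 0.00569). The Ddit3 call was lost without the first Tmem120a or the second Tmem120b knock-down array (0.80 and 0.66). For Ern1 the sum corresponds to a level of 6.49, under the background threshold of 6.87, which the array could not have shown. The double knock-down mean was only 0.33 above the threshold, and the part of background in the difference was not tested. No group of control or knock-down arrays was large enough for a test of single outlying arrays.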

How the results depend on the processing

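The counts of members called stayed within 1.5 times of the main count under each alternative but those named here. When arrays were shifted to 1 shared median and not quantile-normalised, 7 members (main 4) were called lower in Tmem120a knock-down cells and 5 (main 3) departed from additivity. Without a fold threshold, 1 member (main 0) was called for double against Tmem120a knock-down cells and 2 (main 0) for Tmem120a against Tmem120b knock-down cells. With each array left out in turn the counts ran 6 to 7 for control adipocytes against preadipocytes, 4 to 4, 4 to 6 and 4 to 5 for Tmem120a, Tmem120b and double knock-down cells against control, 0 to 1 for double against Tmem120a knock-down cells, 0 to 0 for the other 2 contrasts between knock-downs, and 2 to 4 for additivity; an array left alone in its group was assumed to vary like the others. Median shifting alone moved the median change of genes above background to -0.33, -0.26 and -0.16 in Tmem120a, Tmem120b and double knock-down cells and to 0.21 in control adipocytes against preadipocytes. Over all genes it called 7 higher and 2626 lower, 156 and 2515, and 154 and 1597 in the 3 knock-downs (main 158 and 442, 729 and 770, 627 and 755), 3605 higher and 1261 lower in control adipocytes against preadipocytes (main 2267 and 2110) and 1709 above and 5 below additivity (main 319 and 154, median 0.44), with 454 higher and 50 lower in double against Tmem120a knock-down cells (main 524 and 405), 0 genes in double against Tmem120b knock-down cells (main 38) and 574 in Tmem120a against Tmem120b knock-down cells (main 1223). Relative to those shifts Ern1 stood at -0.87, -1.04 and -1.14, Trib3 at -0.73, -1.0 and -1.02, Chac1 at -0.91, -0.70 and -0.96 and Ddit3 at -0.87, -0.78 and -0.69. Under it Asns lost its call in control adipocytes against preadipocytes (-0.41), the rises of Gpt2, Bcl2l11 and Pdgfrb in Tmem120b and double knock-down cells, of Scara3 in Tmem120b and of Eif2ak2 in double knock-down cells were not called, and Spcs3 (-0.54, main 0.00) and Pdgfrb (-0.51, main 0.01) became called lower in Tmem120a knock-down cells. Same-numbered arrays of different groups correlated at -0.14 to 0.22 over 17536 probes, above 0.1 in 4 of 20 pairs, all with preadipocytes. Between groups of 2 arrays both numbers give the same value, so these pairs are not independent and say little about pairing. With the number as a block 4, 4 and 4 members were called in Tmem120a, Tmem120b and double knock-down cells, 6 in control adipocytes against preadipocytes and 2 for additivity. The calls lost were Atf3 with Tmem120b (-0.42), Ddit3 in double knock-down cells (-0.49) and Ddit3 for additivity (0.75). Genes near background, among them Ern1 in the knock-downs, Atf6, Eif2ak3, Hspa5 and Atf3, can show less change than the mRNA underwent, and 2 or 3 arrays a group limit what could be detected.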
